A study of Mus musculus with 11 samples.

Results

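The 10 genes described here, grouped under the name of immediate-early genes, were measured in mouse hindlimb muscle. They are zinc-finger factors Egr1, Egr2 and Egr3, their co-repressor Nab2, the AP-1 subunits Fos, Fosb, Fosl2, Jun and Junb, and the stress factor Atf3. They were chosen by name, with earlier results of these data known, and 10 of 10 were found among the 24421 gene symbols of both count tables. The study used mice with a tamoxifen-inducible Cre recombinase driven by Hic1 (Hic1CREERT2), a tdTomato reporter and a floxed exon 3 of the beta-catenin gene Ctnnb1, and compared genotypes labelled WT and WTlFlox (written WT/flox below). Removal of exon 3 takes away the phosphorylation sites that mark beta-catenin for degradation, so that a stable protein is made. All 11 libraries are labelled by days after tamoxifen in resting muscle. Whether the WT animals of the lysates carried Cre, and the ages of the mice, could not be read from the labels.

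Mesenchymal progenitors, sorted as CD45- CD31- Sca1+ tdTomato+ alpha7- cells, came from 3 WT animals (72B8, 74A2, 73C3) and 2 WT/flox animals (74A1, 72B7) at day 14 after tamoxifen, and from 1 WT/flox animal (74A3) at day 56. Whole lysate of the TA muscle came from 2 WT (73A5, 73A7) and 3 WT/flox animals (71B3, 71B4, 71B5) at day 56. Cre driven by Hic1 acts only in cells that express Hic1, so a lysate mixes recombined and other cells. Each library is a separate animal by its identifier. The deposited sample tables give 74A2 and 74A1 as female and the other 9 animals as male.

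Immediate-early genes are transcribed within minutes of a growth factor, stretch or stress signal, without new protein synthesis. MAP kinases act on factors already bound at their promoters, chiefly SRF with ternary complex factors and CREB. Egr proteins bind GC-rich sites and switch on Nab2, which then represses Egr activity. Nab2 is thus in this group as a target of Egr factors. Fos and Jun proteins pair through leucine zippers to form AP-1. Enzymatic digestion and sorting of tissue is itself a known inducer of these genes, so their level in a sorted sample can reflect handling as well as the state of the cells in the animal.

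Levels are CPM, counts scaled to a common library size, after TMM scaling, which corrects that size for composition. Totals were 13119843 to 16805238 counts in the progenitor and 16892158 to 19449227 in the muscle libraries. The 12 progenitor markers (Pdgfra, Ly6a, Dcn and others) took 9.92 to 11.4% of counts in the sorts and 0.143 to 0.301% in muscle. Among markers of other cells in the sorts, the myofibre genes took at most 0.0742%, the endothelial genes 0.0698%, the glial genes 0.0653%, the mural genes 0.0319%, the muscle stem cell genes 0.0255% and the immune genes 0.00158%. Of the 10 muscle stem cell genes 3 (Myf5, Cdh15, Calcr) were at 0 in every sorted library. Ctnnb1, counted over the whole gene and so no check of exon 3, had a log2 fold change of -0.26 (SE 0.17, edgeR adjusted p = 0.673) in progenitors and 0.00 (SE 0.15, adjusted p = 0.997) in muscle.

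In WT/flox progenitors Egr3 rose about 9-fold, while the other 9 members did not pass the test. Egr3, a factor of muscle spindle and lymphocyte development, was at 5.72, 9.07 and 5.65 CPM in the WT libraries 72B8, 74A2 and 73C3. In the WT/flox libraries 74A1, 72B7 and 74A3 it was at 54.8, 72.2 and 65.9 CPM. All 3 WT/flox libraries lay above all 3 WT libraries, and the lowest WT/flox value was 6.05 times the highest WT value. The means were 6.81 ± 1.95 and 64.3 ± 8.81 CPM (SD, n = 3 each). In log2 terms WT/flox exceeded WT by 3.24 (SE 0.23, adjusted p = 7.8e-05, edgeR's quasi-likelihood test with Benjamini-Hochberg adjustment over 12392 genes). Summed raw counts behind these values were 309 for WT and 2596 for WT/flox. Egr3 (ENSMUSG00000033730) lies on GRCm38 chromosome 14, 70077203 to 70082614, and no other annotated gene overlaps it on either strand.

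Of the 10 members 1 was therefore higher and 0 were lower, where 3.66% of all tested genes were called, 2.34% higher and 1.32% lower. The same split was found by DESeq2 and by limma voom. Likewise 1 of 10 members had libraries that did not overlap between genotypes, as did 16.9% of all tested genes (8.73% higher, 8.17% lower). At an unadjusted p under 0.05 there was also 1 member, against 12.5% of all genes. As the members were chosen with earlier results of these data known, these counts are descriptions only. The median log2 fold change of the members was -0.24, against 0.00 over all tested genes, with 8 members negative and 2 positive.

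**Figure D1:**
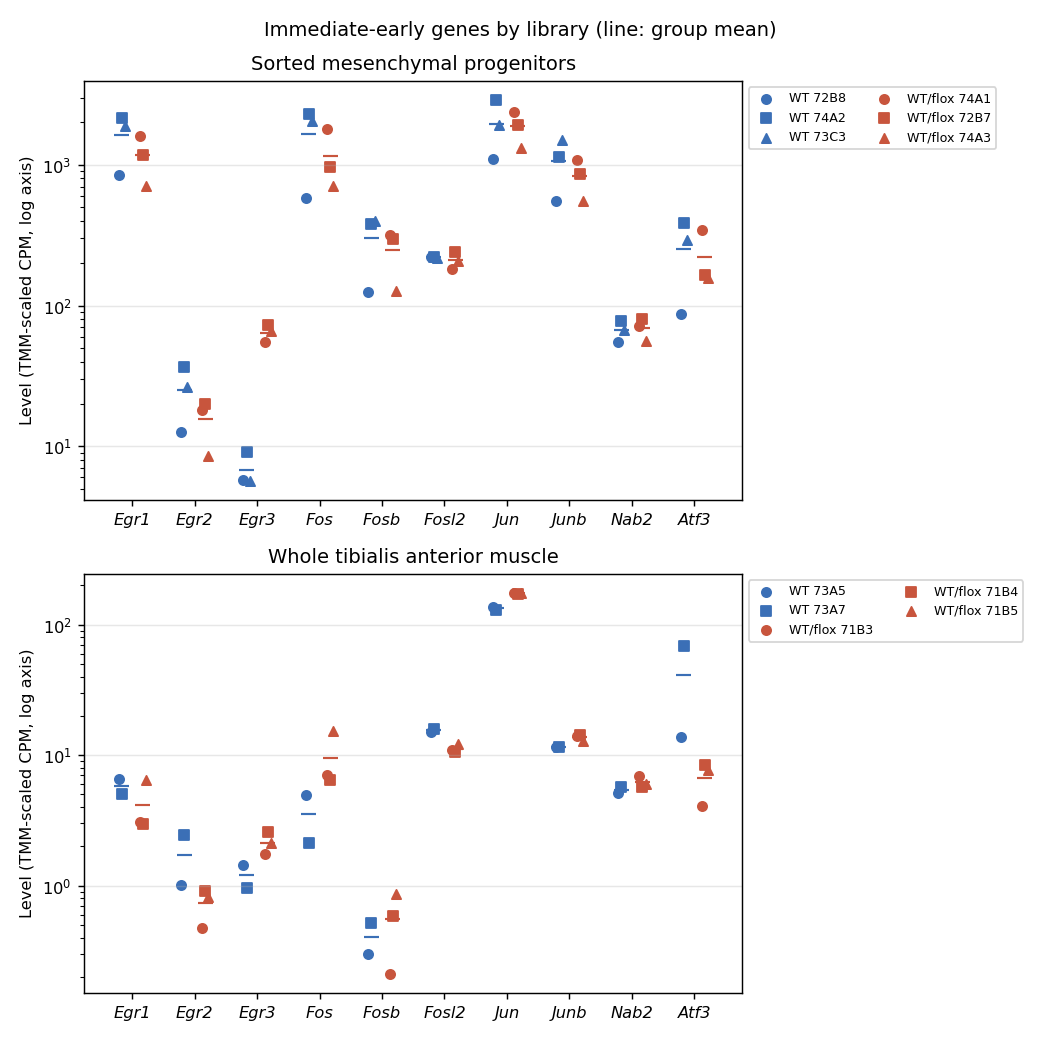
Level of each gene in every library as TMM-scaled CPM on a log axis, progenitors above and whole muscle below, with WT in blue, WT/flox in red and a line at each group mean. In progenitors Egr3 is the only member whose genotypes lie apart (5.65 to 9.07 against 54.8 to 72.2 CPM), while the WT library 72B8 is the lowest WT point for 8 of 10 members.

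Egr1, the most abundant of the Egr factors and a general growth and stress responder, was at 853, 2160.04 and 1879 CPM in WT and at 1602, 1182 and 712 CPM in WT/flox progenitors, in the library order used for Egr3. The genotypes overlapped, and 1 library of each, 72B8 and 74A3, stood low. The log2 fold change was -0.48 (SE 0.38, edgeR adjusted p = 0.800). Egr2, known for its role in Schwann cell myelination, was at 12.7, 36.6 and 26.5 CPM in WT and at 18.2, 20.1 and 8.57 CPM in WT/flox. It too was lowest in 72B8 and 74A3 of each genotype, with a log2 fold change of -0.69 (SE 0.41, adjusted p = 0.631).

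The counts of 2 genes within 1 library do not depend on how libraries are scaled. Per 1000 Egr1 counts there were 6.71, 4.20 and 3.01 Egr3 counts in the WT and 34.2, 61.1 and 92.5 in the WT/flox libraries. The ratio was thus highest in 74A3, the library where Egr1 was lowest. Group means were 4.64 ± 1.89 and 62.6 ± 29.2 (SD, n = 3 each). An exact two-sided permutation test gave p = 0.1, the smallest that 3 against 3 allows (0.2 after adjustment over 6 such ratios). Egr1 varied less over the libraries than the gap between genotypes in Egr3. The separation of this ratio therefore followed from the Egr3 values and is no separate support for them. Egr2 per 1000 Egr1 counts ranged from 14.1 to 16.9 in the WT libraries and from 11.4 to 17.02 in WT/flox, with overlapping genotypes (exact permutation p = 0.5, adjusted 0.6). Egr1 and Egr2 thus kept a similar proportion in all 6 libraries, and Egr3 did not.

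**Figure D2:**
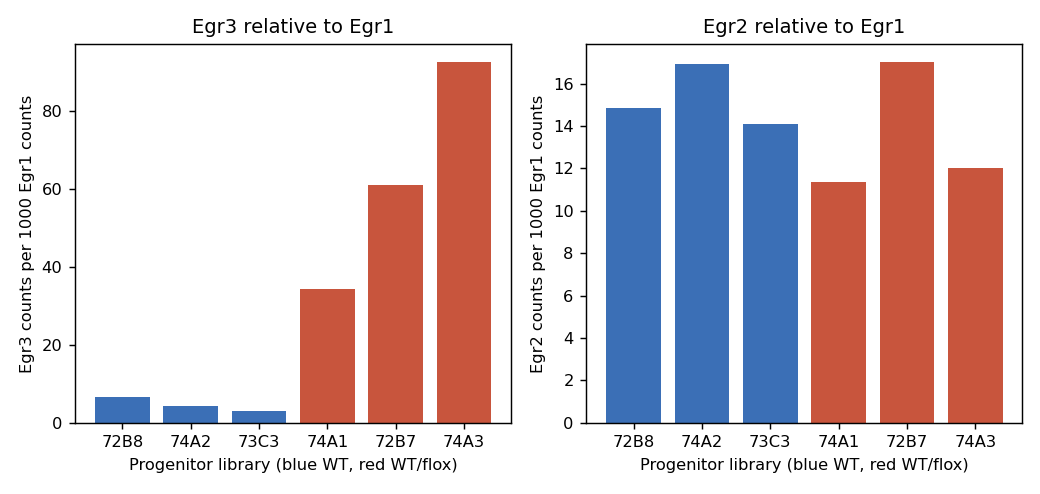
Counts of Egr3 (left) and Egr2 (right) per 1000 Egr1 counts in each progenitor library, 1 bar per library from 0, WT in blue and WT/flox in red. The Egr3 bars run from 3.01 to 6.71 in WT and from 34.2 to 92.5 in WT/flox, while the Egr2 bars overlap between genotypes.

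Nab2, the co-repressor that Egr factors induce, was at 55.5, 77.7 and 67.0 CPM in WT and at 72.0, 80.7 and 55.7 CPM in WT/flox progenitors. Its log2 fold change was 0.06 (SE 0.19, edgeR adjusted p = 0.994), with overlapping genotypes. Stat6 overlaps Nab2 on the other strand in the count table, and no source used here gives the strand setting of the counting, so reads of such a pair cannot be told apart. The related Nab1 averaged 59.4 ± 6.72 CPM in WT libraries and 78.4 ± 13.8 CPM in WT/flox (log2 fold change 0.40, SE 0.18, adjusted p = 0.384). Egr4, the remaining family member, had 1 count in all WT and 1 in all WT/flox progenitors and was not tested.

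Among the AP-1 subunits, Fos was at 586, 2282 and 2063 CPM in WT and at 1809.9, 973 and 703 CPM in WT/flox progenitors. The highest WT library held 3.90 times the lowest, and the WT/flox range lay inside the WT range. The log2 fold change was -0.50 with an SE of 0.50 (edgeR adjusted p = 0.895). Fosb, a close relative that accumulates with repeated stimulation, was at 125, 382 and 402 CPM in WT and at 319, 295 and 127 CPM in WT/flox (log2 fold change -0.29, SE 0.46, adjusted p = 0.958). As for Fos, 72B8 was the lowest WT and 74A3 the lowest WT/flox library.

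Jun, the core AP-1 partner, was at 1092, 2885 and 1922 CPM in WT and at 2384, 1921 and 1316 CPM in WT/flox (log2 fold change -0.07, SE 0.35, edgeR adjusted p = 0.996). Junb, often a restraint on Jun activity, was at 557, 1139.9 and 1498 CPM in WT and at 1076, 859 and 557 CPM in WT/flox (-0.36, SE 0.36, adjusted p = 0.893). Prdx2 overlaps Junb on the other strand. Fosl2, a slower Fos relative, differed from the others in its steadiness. It was at 221, 220.3 and 218 CPM in WT, a highest value of 1.02 times the lowest, and at 180.4, 241 and 208 CPM in WT/flox (-0.07, SE 0.17, adjusted p = 0.984).

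Atf3, induced by many cell stresses, was at 86.4, 385 and 291 CPM in WT and at 345, 164 and 158 CPM in WT/flox progenitors. Its 4.45-fold spread among WT libraries was the widest of the 10 members. The log2 fold change was -0.19 (SE 0.51, edgeR adjusted p = 0.987). A difference that misses the threshold is not shown to be absent: for 6 of the 9 members not called, a value of 2 SE beyond the estimate passes a 2-fold change, and Fosl2, Jun and Nab2 are the exceptions.

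Promoter sequences, from RefSeq on GRCm38.p6, matched 8 of the 10 members, all but Egr1 and Egr3. Those of Fos, Egr2 and Atf3 are shown because they alone of the matched members hold TGACGT, part of the CREB site TGACGTCA. Each run is the 250 bases before a RefSeq start site, read 5′ to 3′ on the strand of the gene. Capitals mark TGACGT on either strand and, in Egr2, the CArG box bound by SRF.
Fos, chr12:85473640-85473889, plus strand: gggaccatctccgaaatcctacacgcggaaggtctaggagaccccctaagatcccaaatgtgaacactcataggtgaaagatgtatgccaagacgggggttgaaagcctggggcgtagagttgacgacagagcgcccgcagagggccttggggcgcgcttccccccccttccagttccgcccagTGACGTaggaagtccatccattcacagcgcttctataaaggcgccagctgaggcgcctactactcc
Egr2, chr10:67537619-67537868, plus strand: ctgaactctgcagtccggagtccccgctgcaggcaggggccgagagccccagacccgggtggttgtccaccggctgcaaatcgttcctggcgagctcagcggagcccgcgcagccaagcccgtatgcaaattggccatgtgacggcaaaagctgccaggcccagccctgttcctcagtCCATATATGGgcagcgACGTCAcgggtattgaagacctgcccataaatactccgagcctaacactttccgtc
Atf3, chr1:191183334-191183583, minus strand: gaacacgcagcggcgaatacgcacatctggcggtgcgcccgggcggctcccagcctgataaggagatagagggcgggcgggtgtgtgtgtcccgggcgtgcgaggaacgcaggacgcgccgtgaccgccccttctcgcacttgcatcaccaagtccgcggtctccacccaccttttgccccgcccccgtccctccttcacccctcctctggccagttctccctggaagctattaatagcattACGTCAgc

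The search was of both strands and its motifs may overlap. TGACGT was chosen after the sequences were seen. It stands in 6.46% of 32817 such windows of all genes. Among the members it stands in 5 of 12 windows, which belong to 3 of the 8 members. Some windows of Egr2 overlap and hold the same site, so these windows are not independent. The CArG box stands in 1.47% of windows, and in 4 of the 12 member windows, all of them of Egr2. The full site TGACGTCA (1.55% of windows), the AP-1 site TGANTCA (6.75%) and the TCF motif core TCAAAG (13.8%) stand in 0 member windows. The Egr site GCGNGGGCG (4.7%) stands in those of Fosb and Fosl2. A match describes letters only, and the absence of one says nothing of sites outside these windows.

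Compared per length of exon, the order of levels in WT progenitors ran Fos, Jun, Junb, Egr1, Atf3, Fosb, Fosl2, Nab2, Egr2 and Egr3. Mean CPM per kb fell from 699 ± 392 for Fos to 364 ± 153 for Egr1, and these first 4 overlapped between neighbours. Egr3 came last at 1.55 ± 0.443 CPM per kb, below Egr2 at 7.43 ± 3.54 without overlap. In WT/flox, Egr3 at 14.6 ± 1.999 lay above Egr2 at 4.60 ± 1.82 CPM per kb (SD, n = 3 each), again without overlap. Egr3 was still far below Egr1, at 260 ± 99.3 CPM per kb.

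The rank of libraries was shared by most members. Library 72B8 was the lowest WT library for 8 of 10 members and 74A3 the lowest WT/flox library for the same 8, all but Egr3 and Fosl2. The share of counts taken by the 10 members was 0.364% for WT library 72B8, 0.988% for 74A2 and 0.847% for 73C3. Among WT/flox libraries it was 0.771% for 74A1, 0.567% for 72B7 and 0.385% for 74A3. Library 74A3 also differs in its day after tamoxifen, so day and library cannot be told apart.

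**Figure D3:**
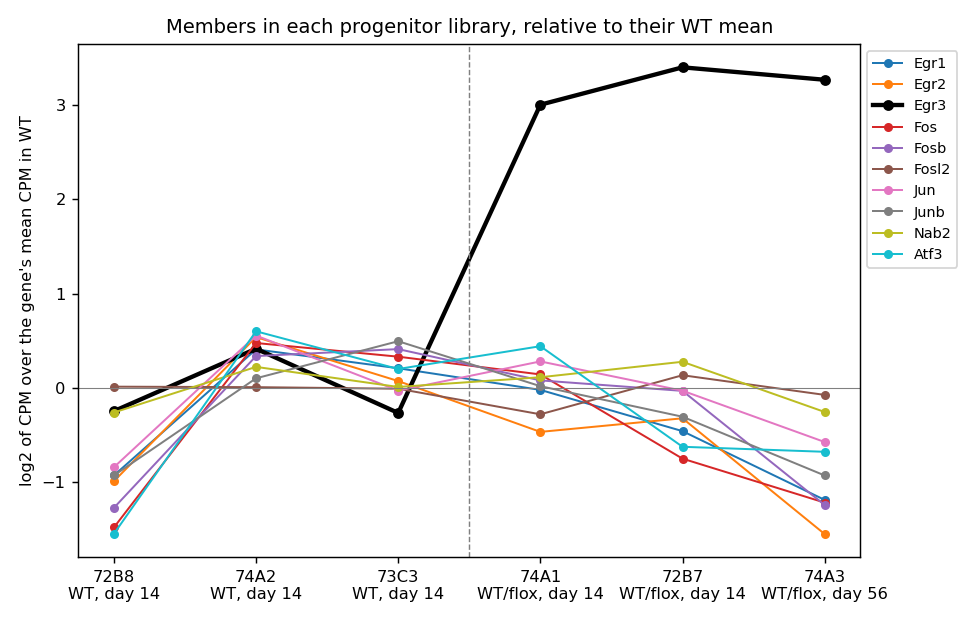
Level of each member in the 6 progenitor libraries as log2 of its CPM over its mean CPM in WT, with lines joining the values of 1 gene and a dashed line between genotypes. The same 8 members dip together in 72B8 and 74A3, Fosl2 stays nearly level, and Egr3 (black) stands apart in the 3 WT/flox libraries.

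The first characters of the animal identifiers allow comparisons of WT and WT/flox animals of 1 identifier series, whose meaning is not given in the labels. In series 72B (72B7 over 72B8), 10 of 10 members were higher in WT/flox. In series 74A, 9 of 10 were lower in WT/flox in 74A1 over 74A2, and 9 of 10 in 74A3 over 74A2, a pair that also differs in sex and day. The ratio of Fos was 1.66 in the first pair, 0.793 in the second and 0.308 in the third, so its direction depended on the pair. That of Egr1 was 1.39, 0.742 and 0.33. For Egr3 the ratio was 12.6, 6.05 and 7.27, with WT/flox higher in 3 of 3 pairs.

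Scores of 2 lists that hold no member were set beside the members, and what moves either score between libraries was not tested. A heat shock score, the mean log2 CPM of 25 chaperone and heat shock genes centred over libraries, was -0.28 in 72B8, 0.13 in 74A2 and 0.04 in 73C3, and 0.20 in 74A1, -0.21 in 72B7 and 0.11 in 74A3. It was low in both animals of series 72B whatever their genotype. A score of 55 other immediate-early genes was -0.33, 0.17 and 0.26 in the WT and 0.04, 0.09 and -0.22 in the WT/flox libraries in the same order. This second score was lowest in 72B8 and 74A3, as were 8 members. Both scores overlapped between genotypes.

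With the heat shock score as a term in the edgeR model, the log2 fold change of Egr3 was 3.23 (SE 0.25, adjusted p = 4.3e-04). With the other immediate-early score it was 3.26 (SE 0.24, adjusted p = 2.1e-04), and with the identifier series as a term 3.11 (SE 0.24, adjusted p = 4.1e-04). The Egr3 difference, 3.24 without a term, was thus slightly smaller with the heat shock score and the identifier series and slightly larger with the other immediate-early score. For Fos the second score moved the estimate from -0.50 to -0.13 and its SE from 0.50 to 0.28, and for Egr1 it moved the estimate from -0.48 to -0.29. Under each of these terms 1 of 10 members passed, and it was Egr3.

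**Figure D4:**
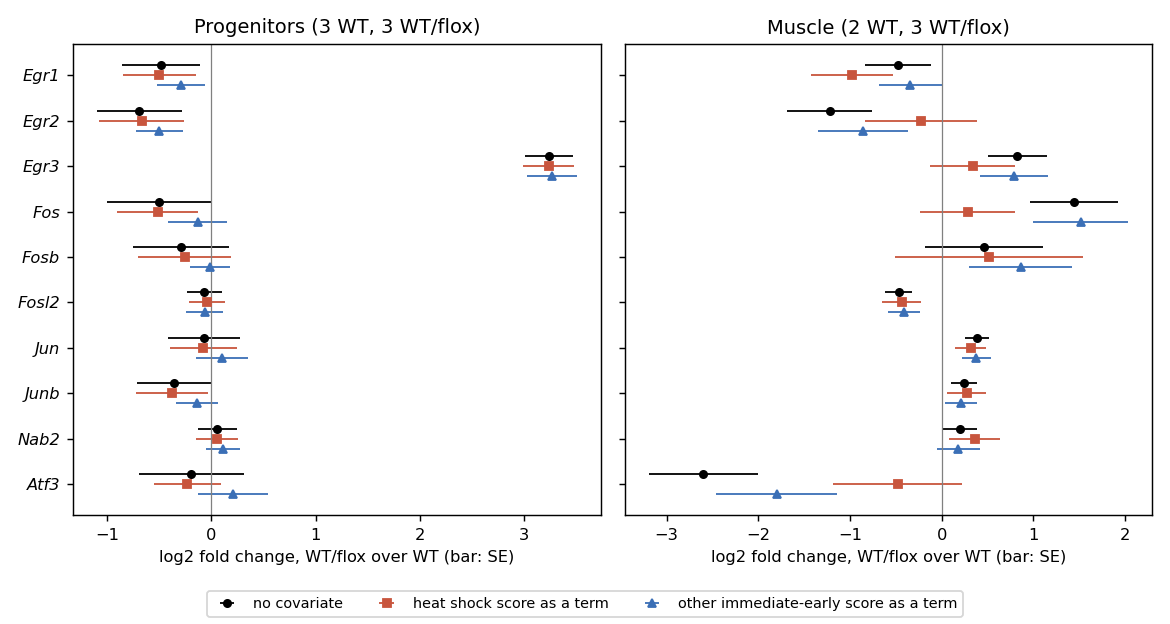
Log2 fold change of WT/flox over WT with its SE for each member, in progenitors (left) and muscle (right), with no covariate (black), with the heat shock score (red) and with the other immediate-early score (blue) as a term. Egr3 in progenitors stays at 3.23 to 3.26, and in muscle the estimate for Atf3 moves from -2.60 to -0.48 with the heat shock score.

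Of 55 tested other immediate-early genes in progenitors 1 was higher and 2 were lower in WT/flox, where 3.66% of all tested genes were called. DESeq2 called 7, and 11 had an unadjusted edgeR p under 0.05, where 12.5% of all genes did. Klf2, a flow-responsive factor best known in endothelium, fell from 554 ± 154 CPM to a mean of 232 ± 48.2 CPM (log2 -1.26, SE 0.25, edgeR adjusted p = 0.0211), and did not pass without 72B7 or without 74A3. The chemokine gene Ccl2 fell from 13.6 ± 4.92 to 4.46 ± 0.114 CPM (-1.61, SE 0.27, adjusted p = 0.0089) and did not pass without 72B7. Nfil3, a circadian and immune repressor, rose from 45.2 ± 4.03 to 85.2 ± 22.5 CPM (0.91, SE 0.20, adjusted p = 0.0354), and passed in only 2 of 6 fits that left out 1 library. Over the whole list the median was -0.03 on the log2 scale, against 0.00 over all genes.

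Among feedback inhibitors of the MAP kinase pathway 0 of 17 tested genes were higher and 1 was lower. Over all tested genes in progenitors edgeR called 3.66%, and 12.5% had an unadjusted p under 0.05. Spry2, a Sprouty inhibitor of receptor tyrosine kinase signalling, fell from 270.03 ± 7.93 CPM to a mean of 114 ± 13.3 CPM (log2 -1.25, SE 0.16, edgeR adjusted p = 0.00228), and passed in 6 of 6 fits that left out 1 library. Of 31 tested upstream kinases and SRF cofactors, only Rps6ka5 was called. It encodes MSK1, a kinase that phosphorylates histone H3 and CREB, and fell from 15.6 ± 2.66 to 8.12 ± 1.05 CPM (-0.94, SE 0.20, adjusted p = 0.0325), passing in 1 of 6 such fits. Of 21 tested AP-1 partners edgeR, DESeq2 and limma voom each called 0 (5 at an unadjusted edgeR p under 0.05). The most abundant of them, Jund, was at 1199 ± 364 and 1055 ± 297 CPM (-0.18, SE 0.28, adjusted p = 0.957), and Atf5 was at 426 ± 88.8 and 384 ± 113 CPM (-0.15, SE 0.26, adjusted p = 0.967). Of 25 tested heat shock genes the same tools called 0 (0 at an unadjusted edgeR p under 0.05), with a median of 0.11. The most abundant were Hsp90ab1 at 1261 ± 178 and 1359.98 ± 145 CPM, and Hspa5 at 865 ± 20.9 and 1038 ± 150.3 CPM.

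Marker lists of other cells were set beside these values as shares of all counts. The endothelial list held 0.0590 to 0.0698% of counts in WT progenitors and 0.0452 to 0.0485% in WT/flox. The mural list held 0.0231 to 0.0319% and 0.0147 to 0.0184%. Both shares were lower in WT/flox without overlap, as Klf2 and Spry2 were, and their part in those falls was not tested. A share is a sum over its list, so an abundant gene that falls, such as Tek or Cspg4 below, can carry much of its fall. No share was computed without these genes. Of 9 tested mural genes 5 estimates were positive and 4 negative, with a median log2 fold change of 0.08, and of 10 endothelial genes 2 were positive and 8 negative, with a median of -0.30. The lists were not uniform: of the endothelial genes the receptor gene Tek fell from 377 ± 49.9 CPM to 152 ± 19.0 CPM (log2 -1.31, SE 0.18, edgeR adjusted p = 0.00319), while Kdr, the VEGF receptor gene, rose from 6.65 ± 3.57 CPM to 125 ± 40.4 CPM (4.23, SE 0.44, adjusted p = 0.00109). Of the mural genes the proteoglycan gene Cspg4 fell from 147 ± 64.04 CPM to 31.1 ± 5.28 CPM (-2.24, SE 0.30, adjusted p = 0.00269). The myofibre list held 0.0422 to 0.0742% in WT progenitors and 0.0347 to 0.0459% in WT/flox, the glial list 0.0510 to 0.0653% and 0.0539 to 0.0627%, and the muscle stem cell list 0.0170 to 0.0255% and 0.0147 to 0.0180%. These 3 shares overlapped between genotypes. Of 13 tested myofibre genes 12 estimates were negative, with a median of -1.75. For this list edgeR and limma voom called 0 and DESeq2 called 6. An unadjusted edgeR p under 0.05 was found for 10 of these genes, and for 12.5% of all tested genes. Of 12 tested progenitor markers 6 estimates were positive and 6 negative, with a median of -0.0079, and edgeR called 1. This was the collagen gene Col1a1, which rose from 7392 ± 609 CPM to 16560.02 ± 1722 CPM (1.16, SE 0.20, edgeR adjusted p = 0.00998), and did not pass without 74A1.

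The genes whose level over the 6 progenitor libraries was most like that of Fos, among 9251 tested genes outside the members whose mean log2 CPM reached 3, were Jund (Pearson r = 0.984), Mboat7 (0.982), Alyref (0.977), Nt5c2 (0.967) and Srsf9 (0.966). Those most like Egr1 were Rnf122 (0.990), Sphk2 (0.981), Mplkip (0.966), Mboat7 (0.965) and Ccdc117 (0.963). These are descriptions over 6 libraries that share depth and handling, picked as the highest of many. Jund alone of these is an AP-1 subunit.

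In whole muscle the members were far less abundant than in the sorts, together 0.0192 to 0.0273% of counts, and 0 of 10 passed in edgeR, DESeq2 or limma voom, where 0.727% of all 12654 tested genes passed in edgeR (0.514% higher, 0.213% lower). At an unadjusted edgeR p under 0.05 there were 6 of 10 members, where 9.69% of all genes had such a p. For 7 of 10 members the genotypes lay apart, 4 higher and 3 lower in WT/flox. The same held for 25.3% of all genes, 12.4% higher and 12.9% lower. The members' median log2 fold change was 0.22, against 0.00 over all genes, with 6 positive and 4 negative. WT identifiers begin with 73A and WT/flox identifiers with 71B, so genotype and identifier series cannot be told apart in muscle. In bulk tissue fewer cells of a type and less RNA per cell cannot be told apart either.

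Egr3 in muscle was at 1.44 and 0.961 CPM in WT (73A5, 73A7) and at 1.74, 2.56 and 2.11 CPM in WT/flox (71B3, 71B4, 71B5), on 15 to 48 counts a library. The 3 WT/flox libraries lay above both WT libraries, with a log2 fold change of 0.82 (SE 0.32, edgeR adjusted p = 0.445). The progenitor markers took 0.143 to 0.229% of counts in WT and 0.244 to 0.301% in WT/flox muscle, also without overlap, and their part in the Egr3 difference was not tested. Without WT library 73A7 the Egr3 estimate was 0.57, and without 73A5 it was 1.15.

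Whether the genotype effect differed between materials was tested in 1 edgeR model of all 11 libraries. For Egr3 the effect in muscle minus that in progenitors was -2.37 on the log2 scale (SE 0.39, adjusted p = 0.0102), and 1 of 10 members passed, where 0.769% of 13781 genes did. Without WT muscle library 73A5 this fell short (-2.03, adjusted p = 0.128). Day after tamoxifen changes together with material in that fit, except for 74A3. A lysate also mixes progenitors with other cells, and the part of that mixing in the difference was not tested.

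Fos in muscle was at 4.91 and 2.11 CPM in WT and at 7.06, 6.40 and 15.3 CPM in WT/flox, a log2 fold change of 1.44 (SE 0.48, edgeR adjusted p = 0.348). The groups did not overlap, and 71B5 was the highest library. The estimate was 0.93 without 71B5, 0.97 without 73A7 and 2.18 without 73A5. Jun, the most abundant member in muscle, was at 137 and 129 CPM in WT and at 173, 172 and 175 CPM in WT/flox (0.38, SE 0.13, adjusted p = 0.357). Junb was at 11.49 and 11.53 CPM against 13.9, 14.2 and 12.8 CPM (0.24, SE 0.15, adjusted p = 0.674). Each of these 3 AP-1 genes was higher in every WT/flox library than in either WT library, by amounts that did not pass the test.

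Fosl2 went the other way, at 15.1 and 15.95 CPM in WT and at 10.9, 10.5 and 12.2 CPM in WT/flox muscle (log2 fold change -0.47, SE 0.15, edgeR adjusted p = 0.311). Fosb had 4 to 18 counts a library and overlapping genotypes (0.46, SE 0.65, adjusted p = 0.903). Egr1 was at 6.58 and 5.06 CPM against 3.06, 2.99 and 6.46 CPM (-0.48, SE 0.36, adjusted p = 0.775), also overlapping. Nab2 was at 5.15 and 5.70 CPM against 6.96, 5.66 and 6.03 CPM (0.20, SE 0.19, adjusted p = 0.838).

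A single WT muscle library carried much of the remaining pattern. Atf3 was at 13.8 CPM in 73A5 and 68.04 CPM in 73A7, and at 4.06, 8.38 and 7.75 CPM in WT/flox, a log2 fold change of -2.60 (SE 0.60, edgeR adjusted p = 0.14). Without 73A7 the estimate was -1.04 (adjusted p = 0.208), and without 73A5 it was -3.33 and passed (adjusted p = 3.7e-04). Egr2 was likewise highest in 73A7, at 2.43 CPM against 1.02 CPM in 73A5 and 0.474, 0.907 and 0.814 CPM in WT/flox (-1.22, SE 0.46, adjusted p = 0.424), on 9 to 38 counts a library. Its estimate was -0.47 without 73A7 and -1.72 without 73A5.

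Heat shock genes took 0.822% of counts in 73A7, against 0.554% in 73A5 and 0.514 to 0.54% in the WT/flox libraries. With the heat shock score as a term, the estimate was -0.48 (SE 0.71, edgeR adjusted p = 0.755) for Atf3, -0.23 (SE 0.61) for Egr2, 0.28 (SE 0.52) for Fos and 0.34 (SE 0.46) for Egr3. For Fosl2 it was -0.44 and for Jun 0.32, close to the values without the term. Other members had larger estimates with the term. Egr1 went from -0.48 to -0.98 (SE 0.45, edgeR adjusted p = 0.255) and Nab2 from 0.20 to 0.36 (SE 0.28). Fosb went from 0.46 to 0.52 (SE 1.03) and Junb from 0.24 to 0.27 (SE 0.21). The score is highest in 1 WT library and lower in all 3 WT/flox libraries than in either WT library, so with 5 libraries it shares much of its variation with genotype.

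Among 52 tested other immediate-early genes in muscle 1 was higher and 0 were lower in WT/flox. Of their estimates 19 were positive and 33 negative, with a median of -0.12, and 14 had an unadjusted edgeR p under 0.05. Over all tested genes in muscle edgeR called 0.727%, and 9.69% had an unadjusted p under 0.05. Cyr61, a secreted matricellular protein gene that responds to stretch through YAP and SRF, rose from 53.8 ± 8.32 (n = 2) to 134 ± 8.53 CPM (n = 3; log2 fold change 1.31, SE 0.16, edgeR adjusted p = 0.0147). It did not pass without 71B4 or without 71B5. In progenitors Cyr61 averaged 439 ± 90.3 CPM in WT libraries and 600.2 ± 124 CPM in WT/flox (0.45, SE 0.22, adjusted p = 0.488). In muscle edgeR called 0 of 20 AP-1 partners (DESeq2 1, limma voom 0; unadjusted p under 0.05 for 5) and 0 of 32 upstream genes (6; DESeq2 1, limma voom 0). It also called 0 of 18 feedback inhibitors (6; DESeq2 0, limma voom 0) and 0 of 26 heat shock genes (5; DESeq2 0, limma voom 0). The most abundant of these lists were Atf4 (log2 fold change -0.36, edgeR adjusted p = 0.545) and Maf (0.39, 0.471) of the AP-1 partners, and the kinase genes Map2k3 (-0.23, 0.774) and Mapk12 (-0.45, 0.427) of the upstream genes. Of the feedback inhibitors they were the phosphatase genes Dusp1 (-0.23, adjusted p = 0.826) and Dusp8 (0.16, 0.791), and of the heat shock genes Hsp90ab1 (-0.21, 0.801) and Cryab. Spry2 was at 16.4 ± 0.742 and 14.6 ± 0.800 CPM there (-0.17, SE 0.14, adjusted p = 0.81). The small heat shock protein gene Cryab was at 1921 ± 1581 and 619.6 ± 130.2 CPM (-1.63, SE 0.48, adjusted p = 0.271). Of the heat shock list 23 of 26 estimates were negative, with a median of -0.25 against 0.00 over all genes. Of 9 tested muscle stem cell markers 5 estimates were positive and 4 negative, with a median of 0.10, and edgeR called 1. This was the myogenic factor Myod1, which rose from 31.9 ± 1.49 CPM to 67.7 ± 4.05 CPM (1.09, SE 0.14, edgeR adjusted p = 0.0177). Myod1 passed in 2 of 5 fits that left out 1 library.

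Over the 5 muscle libraries the genes most like Fos, among 8098 candidates, were Rbm20 (Pearson r = 0.999), Abi3bp (0.999), Ski (0.998), Sparcl1 (0.998) and Prrc1 (0.998). Those most like Egr1 were Fsd1l (0.999), Sp2 (0.994), C2cd5 (0.993), Mief1 (0.993) and Reep3 (0.992). With 5 libraries such values are a description only, and none of these 10 genes is an AP-1 or Egr gene. Per length of exon, Jun was first in both genotypes of muscle, at 41.7 ± 1.75 CPM per kb in WT (n = 2) and 54.4 ± 0.541 CPM per kb in WT/flox (n = 3), without overlap with the next gene. Fosb was last in both, at 0.0650 ± 0.0242 and 0.0886 ± 0.0523 CPM per kb.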

How the data were processed

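RNA was sequenced on an Illumina NextSeq 500 from stranded mRNA libraries, per the labels' protocols. The authors deposited raw counts per gene symbol; bcl2fastq 2.20, STAR and Bowtie are named in the submitters' processing notes, and neither the program that counted reads nor its use of strand is given in the sources used here. Genotype, material and day were taken from the labels, and sex and replicate numbers from the deposited sample tables. These tables call the lysates FAPs; the labels were followed. Each material was fitted separately with edgeR 4.0.16 (R 4.3.3; filterByExpr, TMM, robust quasi-likelihood test, two-sided), with Benjamini-Hochberg adjustment over all tested genes and a threshold of 0.05. The SE is the absolute log2 fold change over the square root of F. Fits were run on simulated counts drawn independently for each gene at 1 fixed spread. Those counts hold no shift shared by many genes of a library, so they do not test calls for genes with such shifts. Alternatives used DESeq2 1.42.0, limma 3.58.1 voom, DESeq2 size factors, no filter, covariates, a replicate block and each library left out. The members and lists were chosen with earlier results of these data known. Named genes were all members; of each other list the called genes (at most 4) or else the 2 most abundant; and the 5 genes most like Fos and Egr1. Nab1, Egr4, Ctnnb1, the marker genes, and Spry2 and Cyr61 in the material where they were not called, fall outside this rule and were chosen after their values were seen. Of the 24421 symbols, 23376 matched GENCODE M21 (GRCm38), which gave positions and exon lengths. Sequences are RefSeq's.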

Additional observations from a re-analysis of the deposited data

Results flagged for a closer look

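The genotype effect on Egr3 differed between materials by a test of the difference itself: muscle minus progenitors was -2.37 on the log2 scale (SE 0.39, adjusted p = 0.0102, edgeR's quasi-likelihood test over 11 libraries). The effect was 3.24 in progenitors, with WT/flox higher in 3 of 3 libraries, and 0.82 in muscle, with 3 of 3 WT/flox libraries above both WT libraries. It passed in 14 of 15 alternatives and not without WT muscle library 73A5 (-2.03, adjusted p = 0.128). Day and material change together in all but 74A3, and their parts were not tested. A lysate also mixes progenitors with other cells: the progenitor markers took 9.92 to 11.4% of counts in the sorts and 0.143 to 0.301% in muscle. The part of that mixing in the difference was not tested.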

How the results depend on the processing

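Egr3 in progenitors passed in 15 of 15 alternatives, at log2 fold changes of 3.11 to 3.49 with each library left out. The number of genes called there (454) was 755 with DESeq2 and 262 to 483 with a library left out, lowest without 74A3 (262) and 72B7 (266). In muscle the 92 called genes became 267 with DESeq2, 139 with no filter, 453 with the heat shock score, 0 with the other immediate-early score, and 0 to 239 with a library left out (0 without 71B5, 25 without 71B4, 207 without 73A7, 239 without 73A5). Of the other immediate-early genes DESeq2 called 7 in progenitors (edgeR 3) and 5 in muscle (edgeR 1), and of the feedback inhibitors 2 in progenitors (edgeR 1). Muscle members called ranged from 0 to 1 with a library left out, the 1 being Atf3 without 73A5, and members called in the joint fit from 0 to 1. The cause of these changes was not tested.

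Among members not called in progenitors the sign changed in some alternatives. Atf3 was 0.0066 with the identifier series, 0.21 with the other immediate-early score and -0.66 to 0.23 with a library left out. Jun was 8.6e-04 with limma voom, 0.10 with the other immediate-early score and -0.36 to 0.31 with a library left out. Fosb was 0.027 with the identifier series and -0.67 to 0.021 with a library left out, Fosl2 -0.18 to 0.030 and Nab2 -0.066 to 0.19. In muscle Fos ran from 0.93 to 2.18 and Egr2 from -1.72 to -0.47 with a library left out, with no change of sign or call. The cause was not tested.

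Replicate numbers, chosen as a block after seeing the data, come from the deposited tables only. Deviations of same-numbered progenitor libraries correlated at 0.294 for 74A2 and 74A1, 0.0307 for 72B8 and 72B7, and -0.133 for 73C3 and 74A3. Both 74A2 with 74A1 and 72B8 with 72B7 share identifier series and sex, and not every library correlated best with its own number. Same-numbered muscle libraries gave -0.0186 and -0.475. The deviations of the 2 WT muscle libraries mirror each other, so these muscle values cannot test pairing. Whether the numbers pair the samples was thus not settled. With the replicate block 491 genes and 1 member (Egr3, 3.26) were called in progenitors. In muscle the block called 178 genes and 2 members, Atf3 (-1.95, edgeR adjusted p = 7.7e-06) and Fos (1.57, adjusted p = 0.0045). Library 71B3 has no WT muscle library of its number, so that genotype estimate rests on 73A5 with 71B4 and 73A7 with 71B5. The block and genotype terms leave little from which to estimate spread, so these p-values carry little weight. Fosb and Egr2 in muscle rest on few counts, which limits their precision.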
